A study of Mus musculus with 14 samples.

Results

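GM-CSF and M-CSF are the growth factors that macrophages depend on. The genes described here are 9 of the 43432 in the deposited expression table. They were chosen by name: the M-CSF receptor Csf1r, the GM-CSF receptor subunits Csf2ra, Csf2rb and Csf2rb2, the ligands Csf1 (M-CSF) and Csf2 (GM-CSF), the signal transducers Stat5a and Stat5b, and Cish, an inhibitor that STAT5 induces. Each matched 1 row of the table.

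GM-CSF binds a receptor made of a ligand-specific alpha chain, encoded by Csf2ra, and a signalling beta chain, encoded by Csf2rb. In mice the neighbouring gene Csf2rb2 encodes a related beta chain that serves the IL-3 receptor. The beta chain carries the kinase JAK2, which activates STAT5. In the lung, GM-CSF made by the epithelium is needed for alveolar macrophages to mature and to clear surfactant, in part through the transcription factor PPAR-gamma. M-CSF and IL-34 act on a single-chain receptor tyrosine kinase, the product of Csf1r, which most tissue macrophages and monocytes carry.

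RNA-seq was performed on lung cells of male 129S1 mice aged 10 to 12 weeks, sorted as positive for SiglecF and CD11c and by a high or low level of MHC class II (MHCII). Bleomycin, a drug that injures the lung and leads to fibrosis, had been given into the trachea at a labelled dose of 3 U/k, and controls received water. Both kinds of cell were taken at 2 and at 4 weeks after the drug, which makes 4 groups of 3 libraries. The fifth group is MHCII-low cells from mice given water, here called controls, with 2 libraries numbered 1 and 3. MHCII-high cells of controls were not analysed here. The labels do not say whether a library came from 1 mouse or a pool, so p-values measure the spread between these libraries.

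Values are the authors' normalized counts, and recovered depth ranged from 15106415 to 88059630 reads per library. The RNAs of both sort markers were present in all 14 libraries: Siglecf at 3056 to 9551 and Itgax (CD11c) at 25185 to 44133 normalized counts. Summed over 10 alveolar macrophage markers, levels ranged from 337302 to 588324. Over 10 markers of monocyte-derived or interstitial macrophages the sum was 32613 to 42932 in MHCII-high cells at 2 weeks and 15482 to 16922 at 4 weeks. In MHCII-low cells it was 3653 to 6292 at 2 weeks, 1231 to 1738 at 4 weeks and 1112 to 1832 in controls. The share of mitochondrial rRNA was 3.42% to 18.3% in MHCII-low cells at 2 weeks, below both controls (21.7% to 24.1%) and below MHCII-high cells at 2 weeks (22.5% to 26.2%). At 4 weeks it was 3.12% to 23.1% in MHCII-low and 8.12% to 29.0% in MHCII-high cells. In sorted bulk cells, fewer cells of a type and less RNA per cell cannot be told apart.

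Per kilobase of exon, the receptor genes were among the most abundant transcripts of these cells. Csf2rb (ENSMUSG00000071713, chr15:78325990-78351000 on the plus strand of GRCm38) had a mean of 12947 normalized counts per kb over the 14 libraries, at the 99.1 percentile of the 17390 genes tested. Csf2ra (ENSMUSG00000059326, chr19:61224402-61228418, minus strand) had 5815 per kb. Csf2rb2 (ENSMUSG00000071714, chr15:78282517-78305603, minus strand) had 4517 and Csf1r (ENSMUSG00000024621, chr18:61105572-61132149, plus strand) had 4342 per kb, so all 4 receptor genes lay at or above the 98.2 percentile. The signalling genes were far lower: Stat5b (ENSMUSG00000020919, chr11:100780731-100850724, minus strand) at 343, Cish (ENSMUSG00000032578, chr9:107296026-107302784, plus strand) at 270 and Stat5a (ENSMUSG00000004043, chr11:100859351-100885169, plus strand) at 173 per kb. Csf1 (ENSMUSG00000014599, chr3:107741048-107760469, minus strand), the M-CSF gene, had 68.4 per kb and lay at the 49.1 percentile.

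Csf2, the GM-CSF gene (ENSMUSG00000018916, chr11:54247271-54249667, minus strand), had 0 reads in each of the 14 libraries. A count of 0 allows up to 3 reads, which is 0.0341 to 0.199 CPM depending on the library, for counting error only. So the cells contained abundant RNA for both chains of the GM-CSF receptor and no detectable RNA for its ligand. Csf2 was the only member that did not pass the filter for low values (10 normalized counts in at least 2 libraries), and the tests below cover the other 8.

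The beta-chain genes are near-identical copies, which bears on how their values can be read. Their coding starts, from the GENCODE M21 transcripts, are shown to make this visible, with the positions that differ in capitals.
Csf2rb: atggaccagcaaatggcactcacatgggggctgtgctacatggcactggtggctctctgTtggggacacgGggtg
Csf2rb2: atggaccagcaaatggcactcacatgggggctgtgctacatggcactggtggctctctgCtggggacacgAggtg
These 75 bases differ at 2 positions, and the whole aligned coding sequences were 95.2% identical over 2631 bases. Of all 50-base words in the Csf2rb coding sequence, 26.0% also occurred in Csf2rb2, and 26.5% of those in Csf2rb2 occurred in Csf2rb. The sources used here give neither read length nor the treatment of multi-mapping reads, so the split of reads between Csf2rb and Csf2rb2 is uncertain. The coding sequences of Stat5a and Stat5b were 90.7% identical over 2346 bases, and the same limit applies to them.

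Csf2rb was highest in MHCII-low cells 2 weeks after bleomycin and lowest in controls. The MHCII-low libraries held 77947, 77141 and 88625 normalized counts at 2 weeks, 61570, 47323 and 53887 at 4 weeks, and 44401 and 47379 in controls. MHCII-high libraries held 65732, 65312 and 73147 at 2 weeks and 48857, 56730 and 55444 at 4 weeks. Within each MHCII level the 2-week libraries lay above all 4-week libraries (a separation that 2431 of the 17390 genes tested showed in either direction in MHCII-low cells). With library totals as the scale (CPM of the recovered reads) the MHCII-low groups of both times overlapped, since replicate 1 at 4 weeks was at 2084 and replicate 2 at 2 weeks at 1959. Both 2-week groups lay above both controls, as 33.1% of genes did in either direction for MHCII-high cells. The order of the group means was MHCII-low at 2 weeks (81238 ± 6410, SD, n = 3), MHCII-high at 2 weeks (68064 ± 4408, n = 3), MHCII-low at 4 weeks (54260 ± 7131, n = 3), MHCII-high at 4 weeks (53677 ± 4224, n = 3) and control (45890 ± 2105, n = 2). Of these neighbours, the 4-week groups overlapped on the authors' scale.

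Csf2rb2 had nearly the same profile at a lower level. Its MHCII-low libraries held 25880, 26551 and 28549 normalized counts at 2 weeks, 19420, 16981 and 19157 at 4 weeks, and 16797 and 18070 in controls. MHCII-high libraries held 21596, 22561 and 24629 at 2 weeks and 17295, 15633 and 18505 at 4 weeks. The 2-week groups again stood apart from all other libraries on this scale, while 4-week and control values overlapped. In CPM the MHCII-high groups of both times overlapped (528.3 to 585.8 at 2 weeks and 368.5 to 550.1 at 4 weeks). Within a library, the ratio of Csf2rb2 to Csf2rb per kb varied little, from 0.285 to 0.394 (0.351 ± 0.0277, SD, n = 14).

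Csf2ra, the alpha chain, did not share this order. Its highest value was 16313 normalized counts in MHCII-low replicate 1 at 2 weeks, where the other 2 libraries held 9191 and 12594. The other groups held 12846, 10322 and 10418 (MHCII-low, 4 weeks), 11603, 9080 and 11520 (MHCII-high, 4 weeks), 8412, 9963 and 11066 (MHCII-high, 2 weeks), and 7504 and 9689 (control). All neighbours in the order of group means overlapped. Of groups further apart, the MHCII-low libraries at 4 weeks all lay above both controls, as 27.4% of all genes tested did in either direction. In CPM this held too (263.8 to 434.8 against 218.8 to 249.7).

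Csf1r was highest in MHCII-high cells at 2 weeks. The libraries held 28221, 29969 and 29747 normalized counts there, against 24959, 23086 and 23668 in MHCII-low cells of that time. At 4 weeks they held 18579, 18286 and 25225 in MHCII-high and 18170, 14230 and 14548 in MHCII-low cells, and controls held 12492 and 15749. Each MHCII-high library lay above each MHCII-low library of its own time, by a narrow gap at 4 weeks, where MHCII-high replicate 3 stood above the other 2. Of all genes tested 21.1% did not overlap at 2 weeks and 16.4% at 4 weeks, in either direction. This separation of Csf1r depended on the scale. In CPM the levels overlapped at both times. The 2-week values were 686.4 to 778.1 (MHCII-high) and 586.3 to 707.3 (MHCII-low), and the 4-week values 431.0 to 673.3 and 363.7 to 615.0. The group means ran from 29312 ± 951 (MHCII-high, 2 weeks, SD, n = 3) through 23904 ± 958 (MHCII-low, 2 weeks, n = 3), 20697 ± 3924 (MHCII-high, 4 weeks, n = 3) and 15649 ± 2189 (MHCII-low, 4 weeks, n = 3) to 14120 ± 2303 (control, n = 2). MHCII-low cells at 2 weeks overlapped with MHCII-high cells at 4 weeks, and MHCII-low cells at 4 weeks with controls. Exons of Csf1r share 873 bases with Hmgxb3 on the opposite strand, and strand use in counting is not given in the sources used here. Hmgxb3 itself ranged from 506.5 to 1173 normalized counts.

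**Figure D1:**
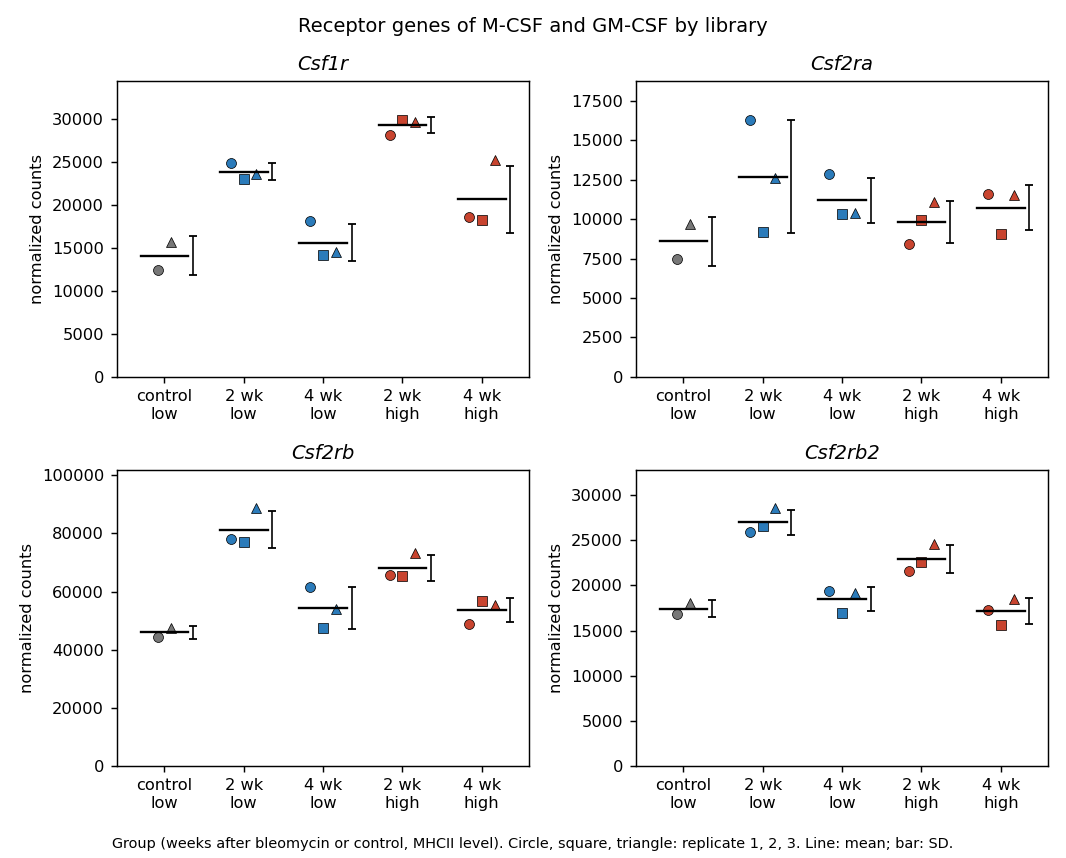
Normalized counts of the M-CSF receptor gene and the 3 GM-CSF and IL-3 receptor chain genes in each of the 14 libraries, by group, with the mean (line) and SD (bar). Csf1r peaked in MHCII-high cells at 2 weeks (28221 to 29969), while Csf2rb and Csf2rb2 peaked in MHCII-low cells at 2 weeks (77141 to 88625 and 25880 to 28549).

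The first question was whether these genes differed between MHCII-low cells of bleomycin-treated and control lungs. At 2 weeks, 3 of the 8 members tested rose, against 1.48% of all genes tested that rose (1.91% in either direction). All 3 were receptor genes. The members were chosen with earlier results of these data known, so this count is not a test of the set. Csf2rb rose by 0.82 ± 0.17 on the log2 scale (SE, adjusted p = 0.00916, limma), Csf1r by 0.77 ± 0.18 (adjusted p = 0.0219) and Csf2rb2 by 0.63 ± 0.15 (adjusted p = 0.0314). These are 1.77-, 1.70- and 1.55-fold differences.

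The other 5 members did not pass at 2 weeks. Csf1 differed by 1.10 ± 0.43 (adjusted p = 0.256, limma) and Csf2ra by 0.54 ± 0.21 (adjusted p = 0.271), with intervals of 0.21 to 1.99 and 0.09 to 0.98. The Csf1 difference was 1.70 without control replicate 1 and 0.50 without control replicate 3. For Stat5a, Stat5b and Cish the estimates were -0.40, -0.10 and -0.33, with 95% intervals that included 0. Counting libraries that do not overlap, Csf1, Csf1r, Csf2rb and Csf2rb2 lay above both controls and Cish below them, a pattern of separation that 35.3% of all genes tested showed in either direction.

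With only 2 controls, the calls rested on each control. Without control replicate 1 the adjusted p-values were 0.136 for Csf2rb, 0.358 for Csf1r and 0.30 for Csf2rb2, and without control replicate 3 they were 0.0809, 0.0536 and 0.170. Csf1r also missed the threshold without MHCII-low 2-week replicate 1 (0.0719) or replicate 3 (0.0561), and Csf2rb2 without replicate 1 (0.0557), 2 (0.0609) or 3 (0.104). Fitted on these 5 libraries alone, none of the 3 passed (adjusted p of 0.140 to 0.185, limma). The share of mitochondrial rRNA did not overlap between these groups and was lower in MHCII-low cells at 2 weeks, where the receptor genes were higher. With it as a covariate, Csf2rb was at 0.80 and passed (adjusted p = 0.0297), while Csf1r at 0.72 (0.0927) and Csf2rb2 at 0.58 (0.123) did not.

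Markers of monocyte-derived or interstitial macrophages moved in this comparison as well. Of the 10, 5 rose and none fell, against 1.48% of all genes tested that rose. Their median log2 fold change was 1.77 against -0.09 over all genes tested. Of the other marker lists, 1 of 10 alveolar macrophage markers rose (Car4), 1 of 6 neutrophil markers tested (Cxcr2) and 1 of 10 alveolar epithelium markers (Sftpc), and no gene of these lists fell. No dendritic cell, eosinophil, lymphocyte, fibroblast or endothelium marker passed. The part of such cells in the receptor result was not tested.

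At 4 weeks, none of the 8 members passed against control, where 0.0460% of all genes tested did (8 genes by limma). At an unadjusted p under 0.05 none passed either: the smallest was 0.0853, for Csf2ra. DESeq2 and edgeR called none. Csf2rb differed by 0.23 (95% interval -0.12 to 0.59), Csf1r by 0.15 (-0.22 to 0.52) and Csf2rb2 by 0.09 (-0.23 to 0.40). The 4-week interval of Csf2rb and its 2-week interval (0.47 to 1.17) overlapped in part.

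The second question was how members differed between 2 and 4 weeks. Within MHCII-low cells, 0 of 8 members passed by limma, against 0.857% of all genes tested. The nearest were Csf2rb2 at -0.54 ± 0.14 (adjusted p = 0.0687), Csf1r at -0.62 ± 0.16 (adjusted p = 0.0766), Csf2rb at -0.59 ± 0.15 (adjusted p = 0.0814) and Csf1 at -1.39 ± 0.38 (adjusted p = 0.117). At an unadjusted p under 0.05, Cish (0.58) and Stat5a (0.65) joined them in the other direction. DESeq2 called all 4 of the lower genes, but the share of all genes that it called is not given here. Of 13 other settings, DESeq2 included, 1 called Csf1, 3 called Csf1r, 3 called Csf2rb and 5 called Csf2rb2.

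Within MHCII-high cells, 0 of 8 passed, against 1.07% of all genes tested. The 4-week libraries did not overlap with the 2-week libraries and were lower for Csf1r, Csf2rb and Csf2rb2, at -0.52, -0.34 and -0.42, a separation found for 15.0% of all genes tested in either direction. Adjusted p-values (limma) were 0.115, 0.303 and 0.140, and these 3 were the members with an unadjusted p under 0.05. DESeq2 called 1 member lower here, Csf2rb2. In CPM the Csf2rb2 libraries of both times overlapped, and those of Csf1r and Csf2rb did not.

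Since both levels moved the same way, the mean of both was tested as well, a comparison added after the levels were seen. Of the 8 members 4 fell, against 2.09% of all genes tested that fell (2.93% in either direction). Csf1 fell by 1.09 ± 0.27 on the log2 scale (adjusted p = 0.0283, limma), Csf1r by 0.57 ± 0.11 (adjusted p = 0.00474), Csf2rb2 by 0.48 ± 0.10 (adjusted p = 0.00577) and Csf2rb by 0.47 ± 0.11 (adjusted p = 0.0162). Stat5a, Stat5b and Cish had estimates above 0 (0.35, 0.35 and 0.23) and did not pass. Csf2ra was at -0.01, with a 95% interval of -0.29 to 0.27.

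The calls of Csf1r and Csf2rb2 passed without any 1 of the 12 libraries (adjusted p at most 0.0185 and 0.0247). Csf2rb missed the threshold without MHCII-high 2-week replicate 3 (0.0596), MHCII-high 4-week replicate 1 (0.0572) or MHCII-low 4-week replicate 2 (0.0549). Csf1 passed without 4 of the 12 libraries and missed it without the other 8 (up to 0.100, without MHCII-high 2-week replicate 1). With plain library totals as the scale in edgeR, none of the 4 passed (adjusted p of 0.107 to 0.243). That scale moved the median log2 fold change of all genes tested from -0.02 to 0.17 and gave 207 genes higher and 168 lower, in place of 146 and 364. The members were then at -0.94 (Csf1), -0.39 (Csf1r), -0.30 (Csf2rb) and -0.31 (Csf2rb2). By limma, 2.09% of all genes tested fell in this comparison. Of 10 monocyte-derived or interstitial macrophage markers 7 fell, with a median of -1.76 against -0.02 over all genes tested. Of the other marker lists, 2 of 9 fibroblast and endothelium markers fell (Col1a1 and Col1a2, median of the list -0.85), 1 of 6 neutrophil markers tested (Cxcr2), 1 of 11 lymphocyte markers tested (Il7r) and 1 of 10 alveolar macrophage markers (Car4). No marker of any list rose, and no dendritic cell, eosinophil or alveolar epithelium marker passed. The part of these cells in the result was not tested.

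The third question was how MHCII-high cells differed from MHCII-low cells of the same time. Csf1, which encodes M-CSF, was the member with the largest difference. The libraries held 902, 634 and 472.6 normalized counts in MHCII-high and 467.6, 339.2 and 283.6 in MHCII-low cells at 2 weeks, then 316.3, 310.7 and 539.2 against 114.9, 129.4 and 166.3 at 4 weeks. Controls held 251.3 and 108.5. Each MHCII-high library lay above each MHCII-low library of its time, as 21.1% of all genes tested did in either direction at 2 weeks and 16.4% at 4 weeks. In CPM this held at 4 weeks (7.32 to 14.4 against 3.31 to 5.31), while at 2 weeks the levels overlapped (10.9 to 22.1 against 7.97 to 13.3).

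Averaged over both times, Csf1 rose by 1.16 ± 0.27 on the log2 scale, a 2.24-fold difference (adjusted p = 0.00921, limma), the only 1 of 8 members to pass, against 7.21% of all genes tested. At 4 weeks alone it rose by 1.47 ± 0.38 (adjusted p = 0.0422), again 1 of 8 members against 2.50% of all genes. At 2 weeks its difference was 0.86 ± 0.38 (adjusted p = 0.276), and 0 of 8 members passed against 2.87% of all genes. Csf1 alone had an unadjusted p under 0.05 there (0.0349), and DESeq2 and edgeR called no member.

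The mean over both times passed without any 1 of the 12 libraries (Csf1 adjusted p at most 0.0375), and missed the threshold with mitochondrial rRNA as a covariate (0.0542). The 4-week call was less firm. It was lost without MHCII-low 4-week replicate 1 (0.155), 2 (0.114) or 3 (0.0730) and without MHCII-high replicate 3 (0.141). It also missed the threshold in 7 of 13 other settings, among them edgeR with TMM factors and voom.

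Csf1r had smaller differences of the same sign, 0.29 at 2 weeks and 0.40 at 4 weeks, with a mean of 0.35 ± 0.11 (adjusted p = 0.0653, limma). This missed the threshold by limma and passed by DESeq2 (adjusted p = 0.0263). The GM-CSF receptor genes had estimates below 0, at -0.20 for Csf2ra, -0.13 for Csf2rb and -0.17 for Csf2rb2, and none passed. Their 95% intervals were -0.48 to 0.08, -0.36 to 0.09 and -0.38 to 0.03. At 2 weeks the Csf2rb and Csf2rb2 libraries of MHCII-high cells all lay below those of MHCII-low cells, and those of Csf1 and Csf1r above, as 21.1% of all genes tested did in either direction. In CPM this held for Csf2rb and Csf2rb2 alone. The share of mitochondrial rRNA also lay above that of MHCII-low cells in every MHCII-high library at 2 weeks.

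Ratios of receptor genes within a library do not depend on the scaling between libraries. In all, 5 were computed, after the levels were seen. Per kb, Csf1r stood to Csf2rb as 0.419, 0.447 and 0.397 in MHCII-high and 0.312, 0.292 and 0.260 in MHCII-low libraries at 2 weeks. At 4 weeks the ratios were 0.371, 0.314 and 0.444 against 0.288, 0.293 and 0.263, and in controls 0.274 and 0.324. The ratio of M-CSF receptor to GM-CSF receptor beta chain RNA was higher in every MHCII-high library than in any MHCII-low bleomycin library. The gap was narrow (0.314 against 0.312), and 1 control lay above the lowest MHCII-high library. How many other pairs of genes separate in this way was not computed. Csf1r over Csf2ra separated the levels within each time but not across times. It was 0.606 to 0.829 in MHCII-high libraries at 4 weeks and 0.579 to 0.951 in MHCII-low libraries at 2 weeks.

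The difference in log2 ratio was 0.48 for Csf1r over Csf2rb and 0.55 for Csf1r over Csf2ra, each averaged over both times. No test is given, since the ratios were chosen for this pattern. Leaving out each of the 12 libraries in turn gave 0.41 to 0.54 and 0.46 to 0.64. The ratios Csf2rb2 over Csf2rb, Csf2ra over Csf2rb and Stat5a over Stat5b differed by -0.04, -0.07 and -0.09.

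**Figure D2:**
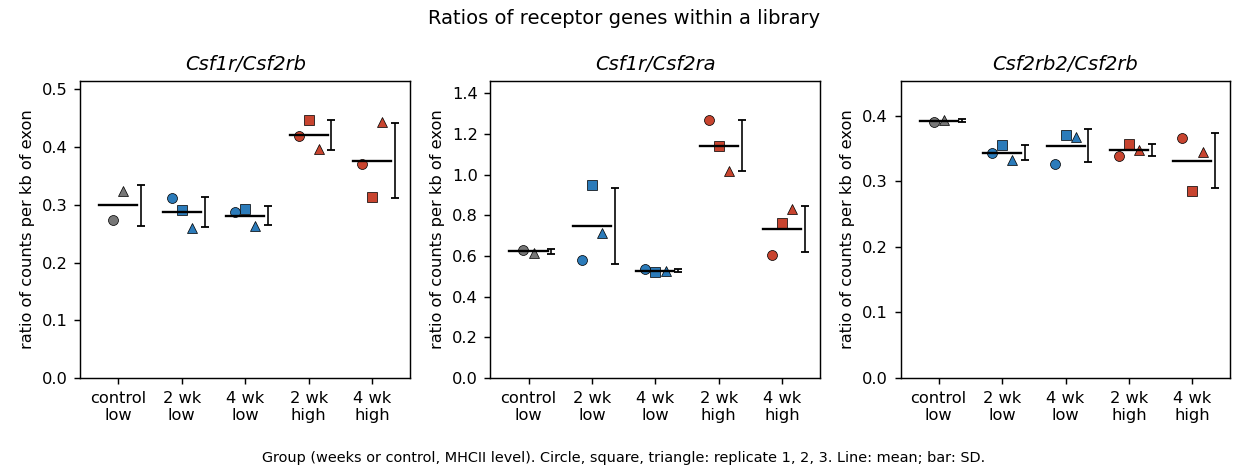
Ratios of counts per kb of exon between receptor genes within each of the 14 libraries, by group, with the mean (line) and SD (bar). Csf1r over Csf2rb was 0.314 to 0.447 in MHCII-high and 0.260 to 0.312 in MHCII-low bleomycin libraries, while Csf2rb2 over Csf2rb ranged from 0.285 to 0.394 over all groups.

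MHCII-high cells of both times also carried more RNA of monocyte-derived or interstitial macrophage markers, of which 8 of 10 rose and none fell in the mean over both times (median 3.70 against 0.02 over all genes tested). Of 10 dendritic cell markers 7 rose, with sums of 1269 to 2771 in MHCII-high and 115 to 376 in MHCII-low libraries, controls included. Of 11 lymphocyte markers tested 7 rose, and 4 of 10 alveolar epithelium markers. Of 10 alveolar macrophage markers 6 fell and none rose. No neutrophil, eosinophil, fibroblast or endothelium marker passed. Of 7 eosinophil markers, the granule protein genes Prg2 and Prg3 were at 0 in all 14 libraries and Epx in 10 of them (up to 25.5 normalized counts). Ccr3 was present in all 14 (17 to 197.1), and the summed level of the list was 101.9 to 407 in MHCII-high and 21.4 to 226.1 in MHCII-low libraries. The part of other cells in the Csf1 and Csf1r differences was not tested.

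STAT5 genes and Cish showed no difference that passed by limma in any of the comparisons. Stat5a ranged from 802.1 to 2374 normalized counts, with MHCII-low 4-week replicate 1 far above the other libraries of its group (1119 and 1257). Stat5b ranged from 1428 to 2614, and all neighbours in the order of its group means overlapped. In CPM its MHCII-high libraries lay higher at 4 weeks (50.9 to 63.8) than at 2 weeks (36.7 to 46.1). On the authors' scale 15.0% of all genes tested separated between these groups in either direction. For the mean over both times, the 95% interval of the MHCII difference was -0.45 to 0.35 for Stat5a and -0.27 to 0.36 for Stat5b. Changes within these intervals were not detectable, and activation of STAT5 proteins by phosphorylation was not measured by RNA-seq.

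Cish encodes CIS, a SOCS family protein that STAT5 induces and that in turn dampens cytokine receptors. Its RefSeq promoter (GRCm38.p6, chr9:107296409-107296688, plus strand) is shown because the gene is read as an output of STAT5. Capitals mark matches to the STAT5 consensus TTCNNNGAA, which reads the same on both strands.
Cish: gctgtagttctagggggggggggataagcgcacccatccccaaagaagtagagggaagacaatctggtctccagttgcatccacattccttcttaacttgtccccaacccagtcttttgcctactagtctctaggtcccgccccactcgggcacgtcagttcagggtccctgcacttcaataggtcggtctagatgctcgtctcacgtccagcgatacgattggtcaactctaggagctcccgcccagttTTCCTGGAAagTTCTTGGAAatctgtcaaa
The matches lie at positions 1 to 9 and 12 to 20 counted from the start site. Of 32851 mouse promoters of this table, each with 250 bases before and 50 after the start, 8.30% held at least 1 match and 0.457% held 2 or more. Promoters of 7 of the 9 members were examined.

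Csf2rb2 passed in MHCII-low cells at 2 weeks against control, but that call was lost on leaving out each MHCII-low 2-week library in turn. Its fall from 2 to 4 weeks passed in the mean of both levels, a comparison added after the levels were seen. The RefSeq promoter of Csf2rb2 (GRCm38.p6, chr15:78305722-78305971, minus strand) held 1 match to the STAT5 consensus. The match ends 7 bases before the start site. Capitals also mark TTCCTC, which is the PU.1 core GAGGAA read on the other strand; 28.3% of promoters held that core on either strand, and the motifs do not overlap here.
Csf2rb2: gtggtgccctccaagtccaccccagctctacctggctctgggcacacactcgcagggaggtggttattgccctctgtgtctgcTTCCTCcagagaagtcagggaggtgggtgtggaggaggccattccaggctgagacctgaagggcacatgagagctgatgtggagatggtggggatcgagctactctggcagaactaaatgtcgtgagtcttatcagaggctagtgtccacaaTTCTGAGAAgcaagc
These matches are descriptions of the letters, since binding was not measured.

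The Cish libraries held 2595, 1745 and 2693 normalized counts in MHCII-low and 1211, 1097 and 1900 in MHCII-high cells at 4 weeks. At 2 weeks they held 1607, 1774 and 1291 against 1520, 1620 and 1323, and controls held 2049 and 1846. At 4 weeks MHCII-high replicate 3 reached into the MHCII-low range, and at 2 weeks the levels overlapped. The difference at 4 weeks was -0.76 ± 0.22 (adjusted p = 0.0812, limma), which missed the threshold, and at 2 weeks -0.06 ± 0.22. The 4-week difference passed by DESeq2 (adjusted p = 0.0357), without MHCII-low replicate 2 (0.0454) and without MHCII-high replicate 3 (0.0157). The change of the difference between the times was -0.70 ± 0.32, with an unadjusted p of 0.0385 and an adjusted p of 0.834, so a difference between times is not shown for Cish. Exons of Cish overlap with the opposite-strand genes Gm17041 over 479 bases and Gm17040 over 261.

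**Figure D3:**
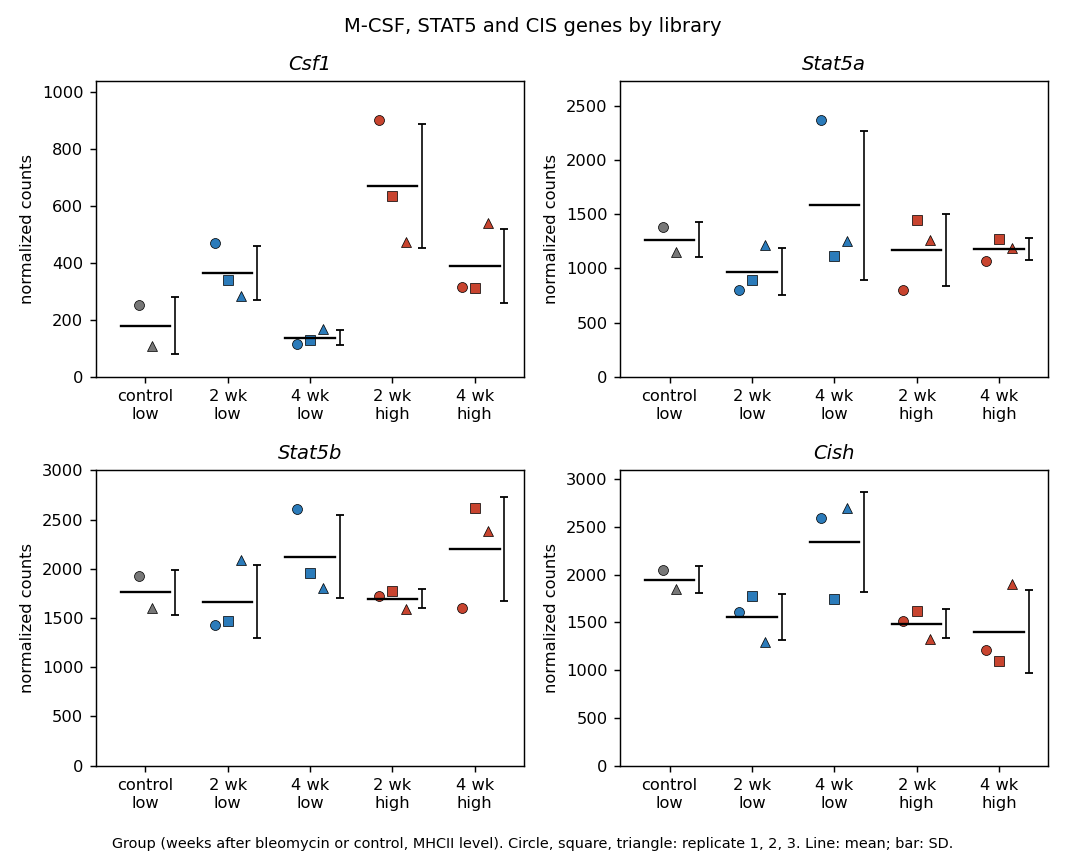
Normalized counts of the M-CSF gene, both STAT5 genes and Cish in each of the 14 libraries, by group, with the mean (line) and SD (bar). Csf1 was 310.7 to 902 in MHCII-high cells and 108.5 to 467.6 in MHCII-low cells, while STAT5 groups next to each other in the order of means overlap.

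No member passed the test of the interaction, the MHCII difference at 4 weeks minus that at 2 weeks. No gene of the 17390 did by limma (0%), while 987 had an unadjusted p under 0.05 and DESeq2 called 56. Of the members, Cish had an unadjusted p under 0.05, and neither edgeR nor DESeq2 called any. The interval for Csf1 was -0.52 to 1.73 and for Csf1r -0.36 to 0.57.

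Compared with MHCII-low control cells, MHCII-high cells at 2 weeks differed in 2 of 8 members, against 4.63% of all genes tested, in a comparison added after the levels were seen. Csf1r rose by 1.06 ± 0.18 on the log2 scale, 2.09-fold (adjusted p = 0.000477, limma), and passed without any 1 of the 5 libraries and in all 13 other settings. Csf1 rose by 1.96 ± 0.43, 3.90-fold (adjusted p = 0.00668), and rested on the controls. It was 2.56 without control replicate 1, and 1.36 without control replicate 3, where it missed the threshold (0.297) and only the higher control of 251.3 normalized counts was left. Csf2rb was next at 0.57 ± 0.17 (adjusted p = 0.0604). At 4 weeks 0 of 8 passed against 2.15% of all genes, and DESeq2 called 1, Csf1r. Those with an unadjusted p under 0.05 were Csf1 at 1.18 ± 0.43 (adjusted p = 0.193, and 1.78 and 0.58 without control replicate 1 or 3) and Csf1r at 0.54 ± 0.18 (adjusted p = 0.131). MHCII level and treatment cannot be told apart in these comparisons, which share the controls with those of MHCII-low cells.

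**Figure D4:**
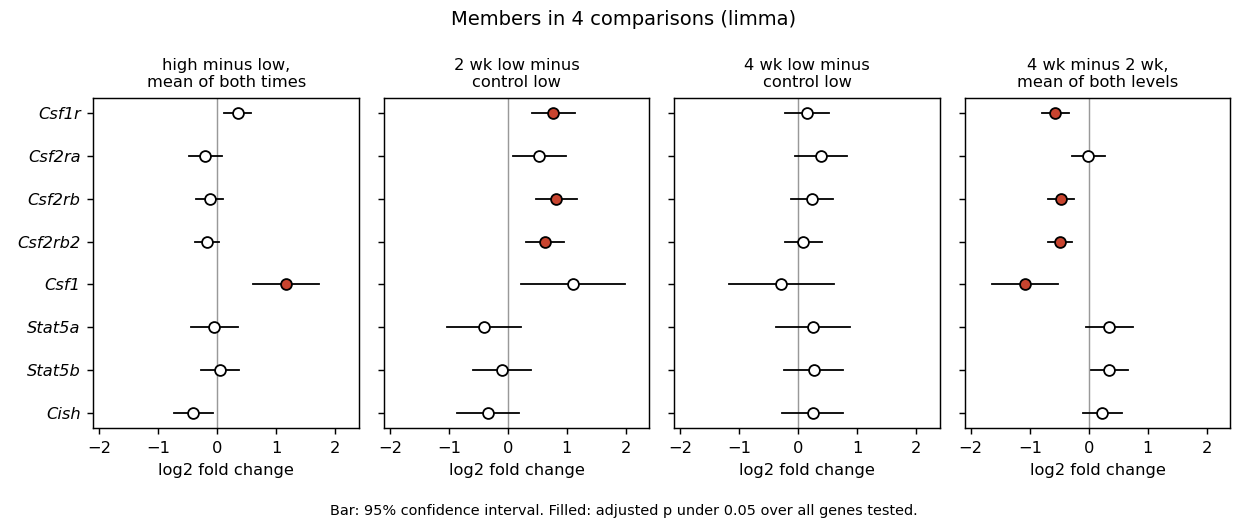
Log2 fold changes of the 8 members tested in 4 comparisons (limma, 95% confidence intervals). Filled points passed the adjusted threshold of 0.05: Csf1 for MHCII-high against MHCII-low, Csf1r, Csf2rb and Csf2rb2 at 2 weeks against control, and these 3 with Csf1 at 4 against 2 weeks, where they were lower. The comparison of 4 against 2 weeks was added after the levels were seen.

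The genes around the receptors were examined in 5 lists. Of 10 other ligands and receptors of these families, 7 were tested. Flt3 is a receptor tyrosine kinase related to Csf1r that marks dendritic cells. It was at 91.7 to 280.8 normalized counts in MHCII-high and 0 to 17.9 in MHCII-low libraries. Flt3 was the only 1 of the 7 to pass in the mean over both times (adjusted p = 1.29e-05, limma), against 7.21% of all genes tested. No gene of the list passed in MHCII-low cells against control at 2 or at 4 weeks, or between 2 and 4 weeks in the mean of both levels. Il34, the other ligand of the M-CSF receptor, was at 0 to 113 normalized counts, with 7 of the 14 libraries at 0. These included both controls and all MHCII-high libraries at 4 weeks.

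All 26 signal transducers next to the receptors were tested. In the mean over both times 2 rose in MHCII-high cells and 1 fell, so 3 of 26 passed against 7.21% of all genes tested, with a median of 0.02, as over all genes tested. Jak2, the kinase bound to the beta chain, rose by 0.44 ± 0.13 (adjusted p = 0.0394, limma), and Cbl, a ubiquitin ligase that removes activated M-CSF receptor, by 0.49 ± 0.14 (adjusted p = 0.0436). Tyrobp, the adaptor DAP12, fell by 0.41 ± 0.12 (adjusted p = 0.0340). These calls held without 5, 4 and 5 of the 12 libraries and were lost without each of the others. They were also lost in 7, 8 and 2 of 13 other settings (adjusted p up to 0.475, 0.604 and 0.402), among them the mitochondrial rRNA covariate for all 3 and TMM factors and voom for Jak2 and Cbl. In MHCII-low cells at 2 weeks against control, 2 rose: Sla, an adaptor that lowers receptor levels, by 0.88 ± 0.21 (adjusted p = 0.0310) and Tyrobp by 0.72 ± 0.18 (adjusted p = 0.0441). Each of these was kept without 1 of the 5 libraries and lost without each of the other 4, and in 4 of 13 other settings.

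Of 16 STAT5 targets and feedback inhibitors 15 were tested. Socs3, a feedback inhibitor that several cytokines induce, was highest at 2 weeks in both MHCII levels. Its MHCII-low libraries held 776.4 to 1599 normalized counts at 2 weeks, 263.3 to 376.4 at 4 weeks and 148 to 299.6 in controls, and MHCII-high libraries 1274 to 1564 and 559.9 to 938.4. It rose by 2.44 ± 0.35 in MHCII-low cells at 2 weeks against control (adjusted p = 0.000227, limma), the only gene of the list to pass there. It fell by 1.49 ± 0.22 from 2 to 4 weeks in the mean of both levels (adjusted p = 0.000262), again the only 1 of 15. Both calls held without any 1 library, and the call against control missed the threshold in 1 of 13 other settings (0.0979).

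Between MHCII levels, 4 of the 15 rose and 2 fell in the mean over both times, where 7.21% of all genes tested passed. The median of the list was 0.18 against 0.02 over all genes tested. Bcl2, an inhibitor of apoptosis, was at 291.4 to 903.5 normalized counts in MHCII-high and 15.4 to 125.3 in MHCII-low libraries and rose by 3.28 ± 0.37 (adjusted p = 4.65e-06, limma). Ccnd1, encoding cyclin D1, rose by 1.64 ± 0.25 (adjusted p = 0.000161), while Ccnd2, encoding cyclin D2, fell by 0.77 ± 0.16 (adjusted p = 0.00333). Bcl6 (0.56), Socs3 (0.77) and Cdkn1a (-0.60) were the others that passed, so genes of this list moved both ways. Bcl6 and Socs3 missed the threshold without 4 and 8 of the 12 libraries and in 3 and 6 of 13 other settings, and Cdkn1a in 2 of them.

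The 15 genes listed here as GM-CSF-dependent in alveolar macrophages were all tested. Their dependence on GM-CSF was not tested in these data. In MHCII-high against MHCII-low cells, 5 fell and none rose in the mean over both times, with a median of -0.41 against 0.02 over all genes tested. Of all genes tested 2.21% fell (7.21% passed in either direction). Marco, a scavenger receptor, fell by 1.55 ± 0.15 (adjusted p = 5.94e-07, limma) and Cidec, a lipid droplet protein, by 1.44 ± 0.16 (adjusted p = 4.9e-06). Car4, a carbonic anhydrase, fell by 0.53 ± 0.14 (adjusted p = 0.0179), Plin2, which coats lipid droplets, by 0.47 ± 0.11 (adjusted p = 0.0113), and Pparg by 0.37 ± 0.10 (adjusted p = 0.0268). Marco, Car4 and Pparg are also counted above among the alveolar macrophage markers that fell. The Pparg call was lost without 6 of the 12 libraries and that of Car4 without 3, and Pparg, Car4 and Plin2 missed the threshold with mitochondrial rRNA as a covariate.

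Over time these genes moved both ways. In MHCII-low cells at 2 weeks against control, 1 of 15 rose and 1 fell, where 1.91% of all genes tested passed in either direction. Car4 rose by 1.06 ± 0.21 (adjusted p = 0.00745, limma) and Cd36, a fatty acid receptor, fell by 1.33 ± 0.26 (adjusted p = 0.00619). Both calls were lost without control replicate 1 (adjusted p of 0.262 and 0.20). From 2 to 4 weeks, in the mean of both levels, 3 of 15 rose and 2 fell, where 2.93% of all genes tested passed in either direction. Abcg1, a sterol exporter, rose by 0.68 ± 0.14 (adjusted p = 0.00693, limma), Cidec by 0.75 ± 0.16 (adjusted p = 0.0118) and Cd36 by 0.69 ± 0.16 (adjusted p = 0.0211). Car4 fell by 0.92 ± 0.14 (adjusted p = 0.000274) and Bhlhe41, a transcriptional repressor, by 0.48 ± 0.13 (adjusted p = 0.0488). The Cd36 call was lost without 5 of the 12 libraries and that of Bhlhe41 without 9, and Bhlhe41 also missed the threshold in 7 of 13 other settings.

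Of 14 genes linked to M-CSF receptor signalling that are reported, all tested, 5 rose and 2 fell in MHCII-high cells in the mean over both times. The median of the list was 0.24 against 0.02 over all genes tested, of which 7.21% passed. Maf, a transcription factor of macrophages, was at 205.7 to 662.9 normalized counts in MHCII-high and 34.1 to 155 in MHCII-low libraries, controls included, and rose by 2.97 ± 0.37 (adjusted p = 1.61e-05, limma). Etv3, a transcriptional repressor, rose by 0.92 ± 0.14 (adjusted p = 0.000142) and Plau, encoding urokinase, by 1.41 ± 0.25 (adjusted p = 0.000792). The others that rose were Egr1 (0.93) and Spred1 (0.88), an immediate early transcription factor and an inhibitor of Ras signalling. Cebpa, a transcription factor of myeloid cells, fell by 0.68 ± 0.14 (adjusted p = 0.00399) and Egr2, related to Egr1, by 0.47 ± 0.11 (adjusted p = 0.00762), so genes of this list moved both ways. These 7 calls held without any 1 of the 12 libraries. Plau (0.0539), Spred1 and Egr2 missed the threshold with mitochondrial rRNA as a covariate, and Cebpa and Egr2 with the GC trend removed.

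In MHCII-low cells none of these 14 genes passed against control at 2 or at 4 weeks, and none passed between 2 and 4 weeks in the mean of both levels (limma). Their medians were 0.07, 0.09 and -0.07. The nearest at 2 weeks was Etv3, at -0.55 ± 0.22 with an unadjusted p of 0.0197 and an adjusted p of 0.267.

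**Figure D5:**
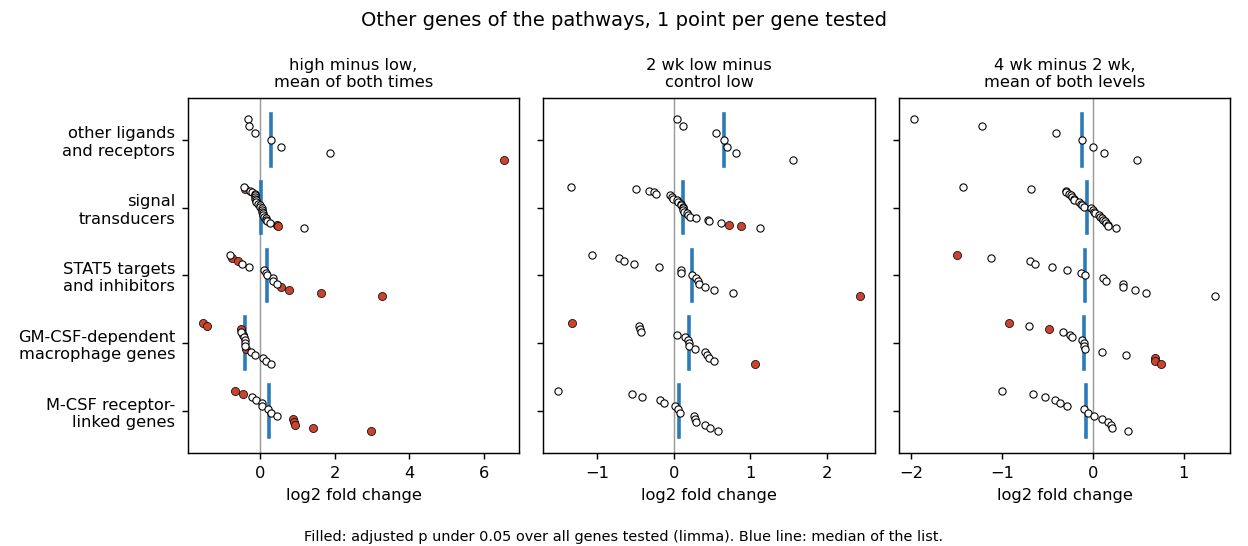
Log2 fold changes of other pathway genes in 3 comparisons, 1 point per gene tested and reported, grouped by list, with the list median as a line. Filled points passed the adjusted threshold of 0.05 (limma). Marco (-1.55) and Cidec (-1.44) are the lowest points of the GM-CSF-dependent list in the MHCII comparison, and Socs3 (2.44) is the highest point in MHCII-low cells at 2 weeks.

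Genes with the most similar profile were sought among 9986 genes with a mean of at least 100 normalized counts, by Pearson's r of log2(value + 1) over the 14 libraries. These libraries form 5 groups and share the authors' scaling, so r describes the group pattern and carries no p. Csf1r was most like Fads1, a fatty acid desaturase (0.955), Sh3pxd2b, an adaptor of podosomes (0.952), and Fn1, fibronectin (0.940). Csf2rb was most like Aldoc, an aldolase (0.967), Aacs, acetoacetyl-CoA synthetase (0.963), and Ccdc80 (0.958). Csf2rb2 was also most like Aldoc (0.936), then Itga5, an integrin subunit (0.919), and Ccdc80 (0.913).

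Csf2ra had Eif6, Vamp8 and Tmsb10 as its nearest genes (0.885, 0.849 and 0.832), none of them shared with the beta-chain genes. Csf1 was most like Il7r, the IL-7 receptor alpha chain (0.948), Lmln (0.932) and Colec12, a collectin (0.919). Il7r is on the lymphocyte marker list and was at 2096 to 2940 normalized counts in MHCII-high and 627.4 to 872.6 in MHCII-low cells at 2 weeks. Among the members themselves, Csf2rb and Csf2rb2 had r = 0.926, Csf1r and Csf1 0.803, Csf1r and Csf2rb 0.753, and Csf2ra and Csf2rb 0.453.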

How the data were processed

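RNA was measured in 14 libraries of sorted mouse lung cells. Per the labels' protocols, mRNA was bead-purified, amplified as cDNA by the NuGen Ovation RNA-Seq V2 kit and tagged with Nextera XT, with no molecular identifiers described. The deposited table holds normalized counts, a signal that the authors scaled per library, with exon length and percent GC as given by the authors. The submitters' processing notes name STAR, DESeq2 and mm10; the annotation is not given in the sources used here. Of 42462 genes shared with GENCODE M21 (GRCm38), 90.1% had an identical span.

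Each column holds whole multiples of 1 step (0.390 to 2.24), so reads were recovered: 100% of the values tested were whole within the rounding of 0.05. Depth was 15106415 to 88059630 reads per library.

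Groups came from the labels. The test was limma (3.58.1, R 4.3.3) fitted to log2(value + 1) of all libraries at once, its variance trended on the mean, for genes with at least 10 in at least 2 libraries (17390 genes), Benjamini-Hochberg adjusted over all of them, threshold 0.05. The scale understates changes of low genes. Self-tests used simulated data. Alternatives were pseudocounts of 0.5 and 5, other filters, TMM, voom, edgeR (4.0.16) and DESeq2 (1.42.0) on recovered reads, covariates for mitochondrial rRNA or GC, fewer groups, a replicate block and each library left out. The members and lists were chosen with earlier results of these data known. From each list, up to 3 genes with the smallest p were named, with others where a count was 5 or fewer, and the 3 most similar genes for receptors and called members. Transcripts came from GENCODE M21 and promoters from RefSeq. For 1 gene of the lists, results are not reported here.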

Additional observations from a re-analysis of the deposited data

How the results depend on the processing

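Members called changed as follows. For MHCII-high against low at 4 weeks (1), there were 0 with no filter, TMM, voom, edgeR with TMM or library totals, the mitochondrial rRNA covariate or only the groups compared, 2 with DESeq2, and 0 to 1 leaving out each library. In the mean over both times (1), there were 2 with a filter of 100, DESeq2 or the GC trend removed, 0 with the rRNA covariate, and 1 to 2 leaving out each library. For MHCII-low at 2 weeks against control (3), there were 0 with edgeR library totals or only the groups compared, 1 with the rRNA covariate, and 0 to 2 leaving out each library. For 4 against 2 weeks in high cells (0), there was 1 with DESeq2, and 0 to 1 leaving out each library. In low cells (0), there was 1 with a filter of 100, 3 with voom or GC removed, 4 with DESeq2, 1 with the replicate block, and 0 to 2 leaving out each library. In the mean of both levels (4), there were 0 with edgeR library totals and 2 to 4 leaving out each library. Against control, MHCII-high cells at 2 weeks (2) had 1 with edgeR library totals and 1 to 2 leaving out each library, and at 4 weeks (0) 1 with DESeq2 or GC removed.

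Of 4032 alternative values of 195 single-gene results, 3704 kept their status, which includes results that passed in neither setting. Of the others, 264 lost a call and 64 gained one, and none that passed changed sign. Leaving aside the 4-week groups against control, members showed 23 separations between groups on the authors' scale. Of these, 17 held and 6 were lost in CPM. Where an arm was left with 1 control, that library was taken to vary like the others. The cause of these changes was not tested. The labels do not say whether high and low libraries of the same number came from the same mice. Deviations of same-numbered high and low libraries correlated with r of 0.00914 to 0.107. Those of other numbers at the same time had r of -0.124 to 0.0770. These weak values cannot decide on pairing, and the main test treated the libraries as independent. The replicate block changed the count of members called only for 4 against 2 weeks in low cells (1). Having 2 controls and 3 libraries per other group limits the precision.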
